A study of Sus scrofa with 2 samples.

Results

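The TRIM (tripartite motif) genes were examined in porcine follicular granulosa cells, the somatic cells around the oocyte, after an siRNA against SMAD4. Members were all messenger RNA rows whose gene symbol begins with TRIM followed by a digit, which gave 48 of the 34570 listed genes. The cells came from ovaries of female Chinese Erhualian pigs and received either SMAD4 siRNA or the control siRNA called NC-siRNA. Each group was 1 library of total RNA pooled from 3 individuals, sequenced on an Ion Torrent Proton. The labels give neither the age of the animals, nor the dose and duration of the siRNA, nor whether both pools came from the same animals. With 1 library per group no test between the conditions was possible, and differences between animals or transfections cannot be told apart from the effect of the siRNA.

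TRIM proteins are mostly E3 ubiquitin ligases: a RING domain recruits the ubiquitin-conjugating enzyme, B-box and coiled-coil segments drive assembly, and the C-terminal end selects the target. Many members with a PRY-SPRY end are made in response to interferon and act in antiviral defence, restricting viruses directly or tagging the RNA sensor RIG-I and its partners. Others work in chromatin, on microtubules, in muscle or in mRNA control. One of them, TRIM33, is known from human and frog cells as a ligase of SMAD4 itself.

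The deposited values are the authors' upper-quartile-scaled RPKM, a read count normalised for gene length and library depth. They are per length, so levels can be compared between genes. The smallest whole numbers of reads that give these values were worked out for each gene, and reads below are such minimums. SMAD4 had a value of 47.9 (407 reads) in the SMAD4 siRNA library and 85.0 (656 reads) in the control library, a ratio of 0.563. The libraries held at least 17394711 reads after SMAD4 siRNA and 17680952 in the control. Ratios are SMAD4 siRNA over control, and the range after a ratio is an exact 95% interval (Clopper-Pearson) of how the reads divided between the libraries. It covers counting error only, not the spread between animals or transfections. Of 12 granulosa markers 10 were above 0, with a summed value of 4118 after SMAD4 siRNA and 3995 in the control, and CYP19A1 and INHBB were listed at 0 in both. Of the 10, 7 were lower after SMAD4 siRNA and 3 higher. Intervals lay wholly below 1 for AMHR2, for NR5A1 at 0.849 (0.741 to 0.973) and for CDH2 at 0.806 (0.719 to 0.903). That of INHBA, at 1.31 (1.22 to 1.41), lay wholly above 1. FOXL2, NR5A1 and INHA were above 100 in both libraries. FSHR was low, at 3.48 after SMAD4 siRNA and 4.93 in the control, as was AMHR2, at 8.49 and 17.2, a ratio of 0.493 (0.266 to 0.886). A listed 0 can be a failed estimate, since TBK1, a kinase used by most cells, was also listed at 0 in both. In bulk RNA, fewer cells of a type and less RNA per cell cannot be told apart.

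Of the 48 members, 34 were above 0 in at least 1 library and 14 were listed at 0 in both. That is 29.2% of the family at 0, where 32.8% of all messenger RNA entries were. Among the 14 were TRIM33, the SMAD4 ligase, TRIM6, an interferon-induced relative of TRIM34, and TRIM71, a stem cell factor of the NHL class. The other 11 were TRIM13, TRIM31, TRIM40, TRIM41, TRIM42, TRIM50, TRIM52, TRIM55, TRIM58, TRIM64 and TRIM77. A further 2 members were above 0 but had a mean value under 1, the minimum set for comparison. They were TRIM10, with 1 read in the SMAD4 siRNA library and 0 in the control, and TRIM67, with 4 reads and 1 read. This left 32 members.

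TRIM27, a nuclear and endosomal ligase also called RET finger protein, was the most abundant member in both libraries, with a value of 700 after SMAD4 siRNA and 754 in the control. It exceeded 85.3% of the messenger RNAs that met the minimum in the SMAD4 siRNA library and 85.6% in the control. TRIM26, TRIM8, TRIM3 and TRIM62 came next in the SMAD4 siRNA library. In the control library the same 4 followed, with TRIM8 and TRIM3 ahead of TRIM26. The same 10 members made up the top 10 of both libraries. The summed value over all members was 3970 in the SMAD4 siRNA library and 4270 in the control, a ratio of 0.930. The sum over all listed genes had a ratio of 0.921, so the family as a whole followed the library totals closely.

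**Figure D1:**
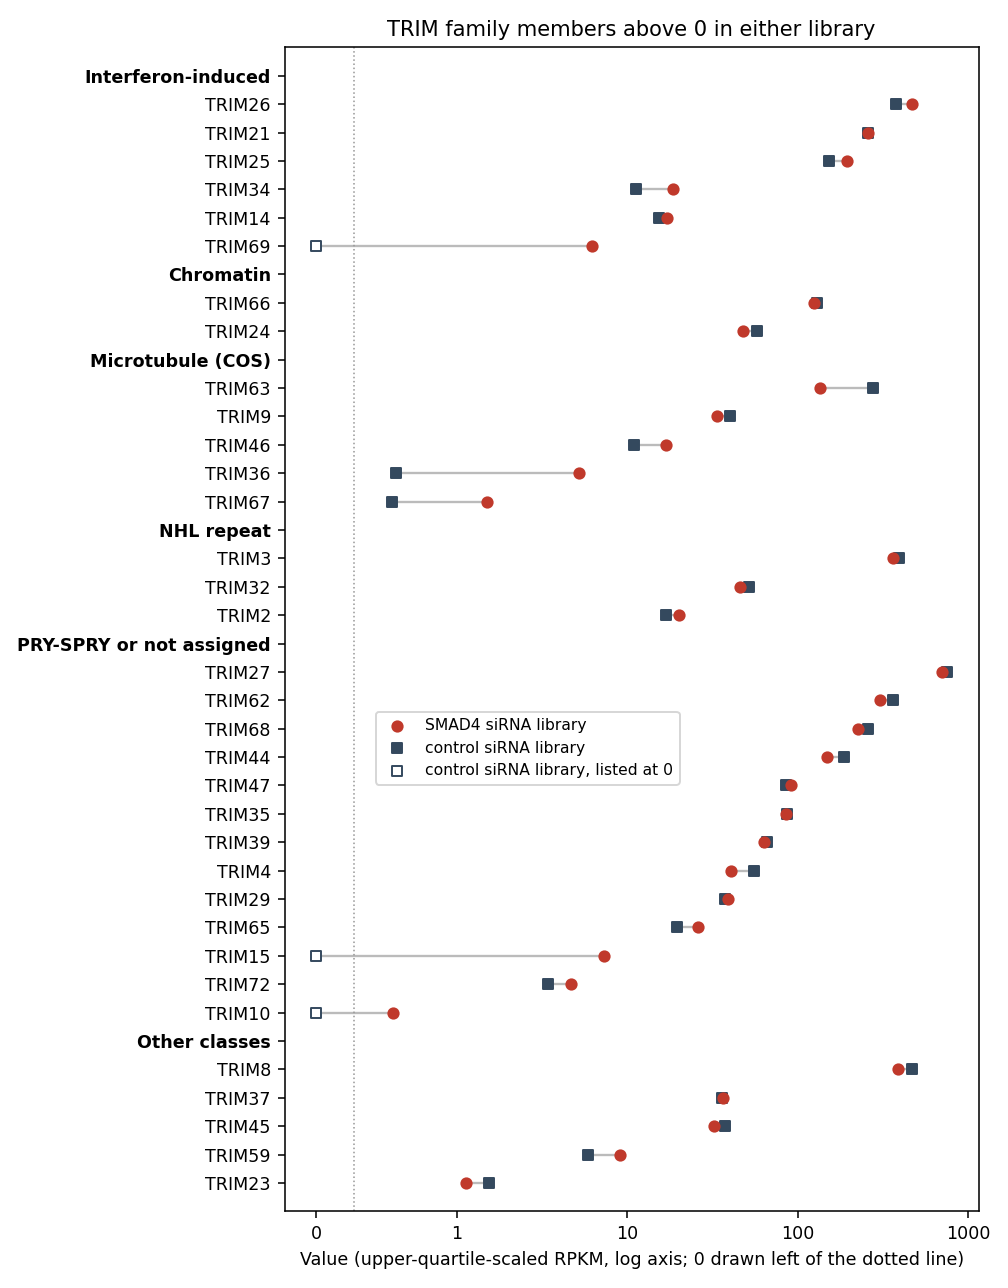
Value of each TRIM member above 0 in either library, in upper-quartile-scaled RPKM on a log axis, by class. Red circles are the SMAD4 siRNA library and dark squares the control library, with open squares for members listed at 0 in the control. Most pairs of symbols lie close together, from TRIM27 at 700 and 754 down to TRIM23 at 1.13 and 1.56, and the wide gaps belong to TRIM63, TRIM36, TRIM69 and TRIM15, and to TRIM67 and TRIM10 under the minimum.

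The main comparison asked how far members moved, with 1 added to each value before the log2 ratio was taken. By that measure 3 of 32 members were at least 2-fold higher after SMAD4 siRNA and 1 was at least 2-fold lower. Of the 16609 genes that met the same minimum, 7.17% were that much higher and 6.68% that much lower. Together the 4 members were 12.5% of those compared, against 13.9% of all genes and 10.3% of messenger RNA entries. The median log2 ratio of the family was -0.02, beside -0.05 for all genes. The 3 higher members, at 0, 0 and 0.442 in the control, met the minimum only through the SMAD4 siRNA library and so had to differ, and their count supports nothing about the family.

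The 4 were TRIM69, TRIM15 and TRIM36 on the higher side and TRIM63 on the lower side. A minimum of 5 on the mean value, or of 100 reads, leaves out the 3 higher ones, so neither setting tests their calls. With each library rescaled to a sum of 1000000, all values fell and the added 1 weighed more. The 3 higher ones were then under the minimum, and TRIM63 was at -0.85. As plain ratios between libraries of equal sum, TRIM36 was at 12.8 (1.92 to 545) and TRIM63 at 0.530 (0.434 to 0.646). TRIM36 was at 0.91 with a pseudocount of 5, below the limit of 1. TRIM63, also called MuRF1, is a ligase known for the breakdown of contractile proteins in wasting muscle. Its value was 136 (156 reads) in the SMAD4 siRNA library and 278 (290 reads) in the control, a ratio of 0.489 (0.400 to 0.596). It is the single member of the 23 with at least 100 reads that passed 2-fold, which 2.44% of all genes with as many reads did. Its log2 ratio of -1.03 was only just past the limit of -1, and became -0.98 when ratios were centred on the median of all genes.

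TRIM69, an interferon-induced ligase that binds microtubules and restricts several RNA viruses in human cells, had a value of 6.25 (13 reads) in the SMAD4 siRNA library and was listed at 0 in the control. The lower bound of its counting interval was 2.77, and it has no upper bound. That bound takes the listed 0 as 0 reads, though a listed 0 can be a failed estimate. Of the 184 genes with exactly 13 reads in the SMAD4 siRNA library, 2 were listed at 0 in the control, or 1.09%. TRIM69 is 1 of the 2 and was singled out for that 0, so the share lends it no support. TRIM36, a microtubule-associated ligase of the acrosome and embryo, had 5.22 (13 reads) and 0.442 (1 read), a ratio of 11.8 (1.77 to 502). TRIM15, a focal adhesion protein, had 7.36 after SMAD4 siRNA from 5 reads and was listed at 0 in the control. The interval of TRIM15 reached below 1, with a lower bound of 0.832. With TRIM15 included, 38 of the 398 genes with exactly 5 reads after SMAD4 siRNA (9.55%) were listed at 0 in the control.

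Few-read genes scatter widely between any pair of libraries, so each member was also set beside all genes with a like number of reads. Of the 32 members, 29 lay within the central 95% of genes in their own range of reads. TRIM69 and TRIM36 lay above it, where genes with 10 to under 30 reads had a central 95% from -2.16 to 2.01 on the log2 scale. TRIM63 lay below it, where genes with 300 to under 1000 reads ran from -0.77 to 0.70. TRIM15, at 3.06, was inside the range of genes with under 10 reads, which reached 3.20.

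**Figure D2:**
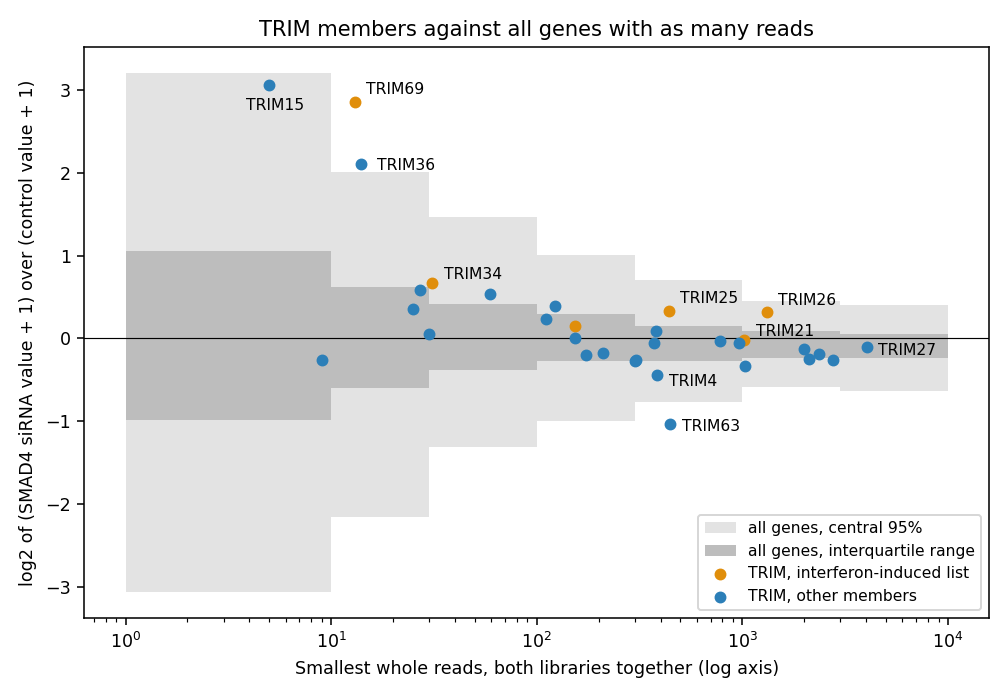
Log2 ratio of each compared TRIM member against its smallest whole reads in both libraries together, on a log axis. Grey steps are the interquartile range and the central 95% of all genes within ranges of reads, orange points are members on the interferon-induced list and blue points the other members. TRIM69 (2.86) and TRIM36 (2.11) lie above the 95% band and TRIM63 (-1.03) below it, and the other 29 members are inside.

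Members known to be induced by interferon were then compared with the rest of the family. The list, from human and mouse cells, held 11 genes, of which 7 were among the members and 6 met the minimum. TRIM5, TRIM22, TRIM38 and TRIM56 were not analysed here. Of the 6, 5 had a log2 ratio above 0, and the median of the 6 was 0.33. TRIM69, 1 of the 5, met the minimum only through the SMAD4 siRNA library and so had to be above 0. Without TRIM69 the median was 0.31. The direction of TRIM25, another of the 5, depends on which of its entries is read, as given below. The other 26 had a median of -0.08, with 10 above 0 and 16 below. Of all genes, 45.5% were above 0. The difference of the medians was 0.41 on the log2 scale. Summed values gave 965 after SMAD4 siRNA and 819 in the control for the interferon-listed members, a ratio of 1.18. For the others they gave 3005 and 3451, a ratio of 0.871. These sizes are small, and members within 1 library are not replicates.

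TRIM26, a gene of the MHC region that has been tied to signalling by the kinase TBK1, had 471 (759 reads) after SMAD4 siRNA and 379 (554 reads) in the control. Its ratio was 1.24 (1.11 to 1.39). TRIM25, the ligase best known for attaching ubiquitin chains to RIG-I and for conjugating ISG15, had 194 (255 reads) and 153 (183 reads), a ratio of 1.27 (1.04 to 1.54). TRIM25 may be split, however: a second entry without a symbol carries its name in the Sscrofa11.1 reference table. That entry was higher in level, with 504 (1119 reads) in the SMAD4 siRNA library and 534 (1076 reads) in the control, and its ratio was 0.944 (0.868 to 1.03). With both entries summed the values were 698 and 687, a ratio of 1.02. The direction of TRIM25 therefore depends on the entry. With the summed value the median of the interferon-listed members became 0.23, and the difference from the other members 0.32.

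TRIM21, a cytosolic antibody receptor that sends antibody-coated virus to the proteasome, had nearly equal values, 258 (531 reads) after SMAD4 siRNA and 261 (487 reads) in the control, a ratio of 0.990 (0.874 to 1.12). TRIM14, a RING-less adaptor of the mitochondrial antiviral protein MAVS, had 17.2 (85 reads) and 15.3 (69 reads), a ratio of 1.12 (0.805 to 1.56). TRIM34, a relative of the retrovirus restriction factor TRIM5, had 18.6 (20 reads) and 11.2 (11 reads), a ratio of 1.65 (0.754 to 3.82). TRIM26, TRIM25 and TRIM69 were the listed members with an interval wholly above 1, and for TRIM21, TRIM14 and TRIM34 it included 1. Across all genes 12.7% had an interval wholly above 1. TRIM69 met the minimum only through the SMAD4 siRNA library, and TRIM25 had such an interval in only 1 of its 2 entries, which leaves TRIM26. Without TRIM69 the median of the interferon-listed members was 0.31. Leaving out TRIM69 and summing the TRIM25 entries were not combined into a new median. The log2 ratios then left were -0.01 (TRIM21), 0.02 (TRIM25, summed), 0.15 (TRIM14), 0.31 (TRIM26) and 0.68 (TRIM34), with TRIM14 in the middle.

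Among the other 26 members 1 interval lay wholly above 1, that of TRIM36, and 7 lay wholly below 1. Of all genes 21.5% had one wholly below 1. A wider interferon list, with 9 members compared, also held TRIM62, TRIM68 and TRIM15. TRIM62 and TRIM68 are among the 7 below 1, so under that list interferon-listed members lay on both sides of 1. The difference of medians between interferon-listed and other members was then 0.375. In the family together 11 of 32 intervals excluded 1, which is 34.4%, against 34.2% of all genes. Among members with at least 100 reads, 9 of 23 excluded 1, where 50.0% of all genes with as many reads did. The direction of these intervals depends on the scale. When both libraries were rescaled to equal sums, which adds 0.12 to the log2 of each plain ratio, 21.3% of all genes lay wholly above 1 and 13.4% wholly below 1. In the family 4 then lay above 1 and 5 below, since TRIM27 and TRIM68 no longer excluded 1.

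**Figure D3:**
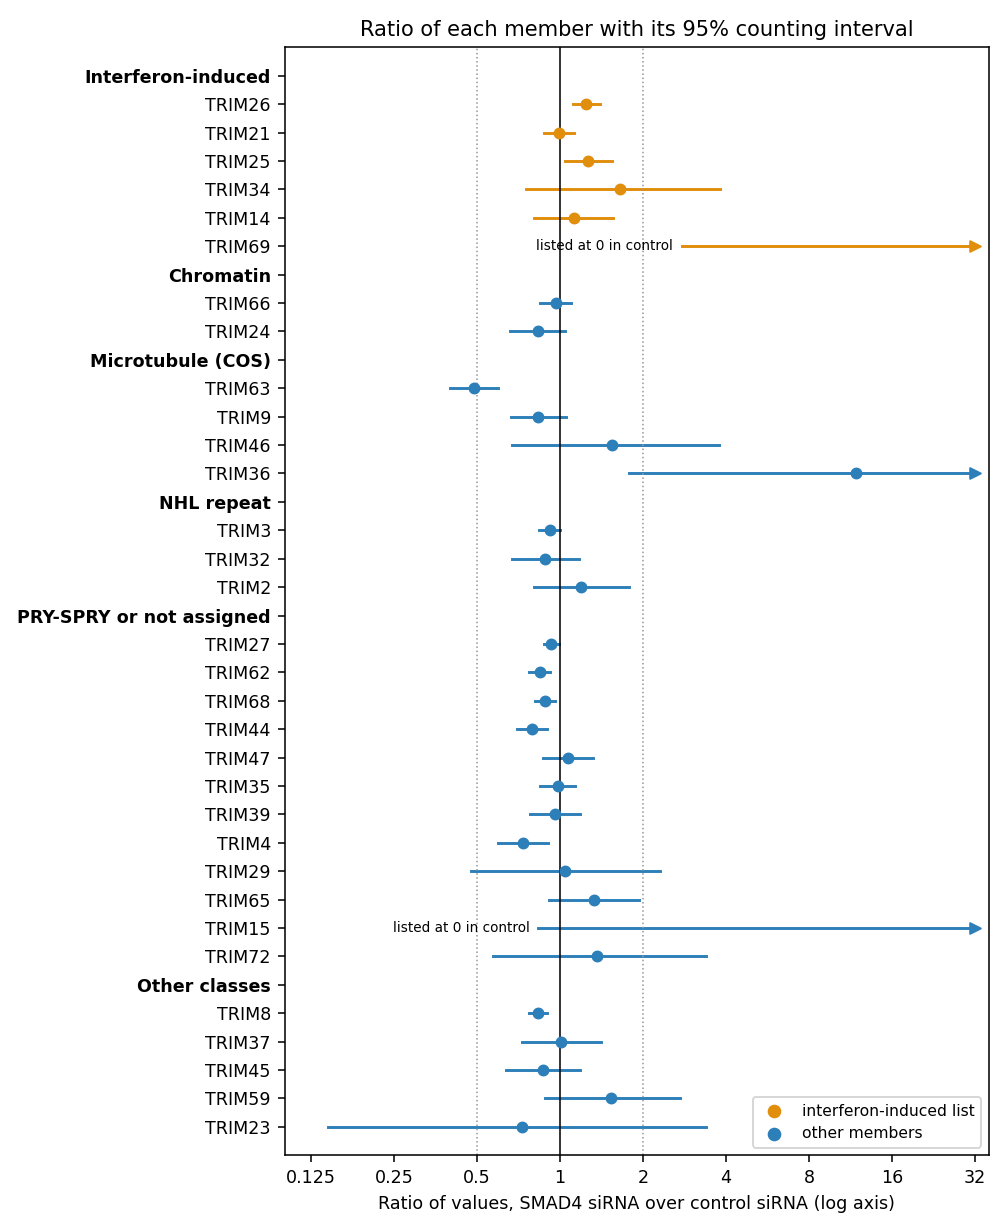
Ratio of values, SMAD4 siRNA over control siRNA, on a log axis for the 32 compared members, with 95% counting intervals as lines. Orange marks the interferon-induced list, blue the other members, dotted lines 0.5 and 2, and arrows intervals that run past 32. Intervals of TRIM26, TRIM25, TRIM69 and TRIM36 lie to the right of 1 and those of TRIM63, TRIM4, TRIM44, TRIM8, TRIM62, TRIM68 and TRIM27 to the left.

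TRIM63 was described above, and the other 6 members with an interval below 1 were closer to 1. TRIM4, a PRY-SPRY member reported to act on RIG-I in human cells, had 40.9 (172 reads) after SMAD4 siRNA and 55.8 (213 reads) in the control, a ratio of 0.733 (0.596 to 0.901). TRIM44, which has no RING and has been linked to removal of ubiquitin, had 149 (481 reads) and 188 (551 reads), a ratio of 0.793 (0.700 to 0.898). TRIM8, a ligase tied to cytokine and NF-kB signalling, had 391 (1313 reads) and 470 (1433 reads), a ratio of 0.832 (0.771 to 0.897). That of TRIM8 was counted on many reads but was small in size. TRIM62, also called DEAR1 and known in human breast cells as a brake on TGF-beta signalling through SMAD3, had 304 (1013 reads) and 361 (1093 reads), a ratio of 0.842 (0.772 to 0.918). TRIM68, a coactivator of the androgen receptor, was at 0.880 (0.811 to 0.955), and TRIM27 was at 0.929 (0.873 to 0.988).

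In the chromatin class, TRIM24 and TRIM66 were measured beside TRIM33, listed at 0, which can be a failed estimate. TRIM28, also of this class, was not analysed here. TRIM24, a coregulator of nuclear receptors, had 48.1 (144 reads) after SMAD4 siRNA and 58.1 (158 reads) in the control, a ratio of 0.828 (0.656 to 1.04). TRIM66, which binds the heterochromatin protein HP1, had 126 (497 reads) and 131 (469 reads), a ratio of 0.962 (0.847 to 1.09). Both intervals included 1.

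The microtubule class, whose members carry a COS box that binds microtubules, ran from -1.03 for TRIM63 to 2.11 for TRIM36 on the log2 scale among the 4 members compared. TRIM9, a ligase of netrin signalling, had 33.6 (146 reads) after SMAD4 siRNA and 40.3 (159 reads) in the control, a ratio of 0.834 (0.662 to 1.05). TRIM46, which bundles microtubules in axons, had 16.9 (17 reads) and 11.0 (10 reads), a ratio of 1.54 (0.668 to 3.77). TRIM67, a relative of TRIM9 that was under the minimum, had 1.51 (4 reads) and 0.416 (1 read), a ratio of 3.63 (0.359 to 179).

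All 3 measured members of the NHL class, proteins that bind RNA or partner proteins through a beta-propeller, had intervals that included 1. TRIM3 had 363 (1003 reads) after SMAD4 siRNA and 396 (993 reads) in the control, a ratio of 0.917 (0.839 to 1.002). TRIM32, mutated in a human limb-girdle muscular dystrophy, had 45.8 and 51.9, a ratio of 0.883 (0.667 to 1.17). TRIM2 had 20.2 and 16.9, a ratio of 1.19 (0.806 to 1.77).

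The remaining 10 compared members also had intervals that included 1. Among those with at least 100 reads, TRIM35 was at 0.979, TRIM39, a regulator of the cell cycle and of apoptosis, at 0.958, and TRIM47 at 1.07. TRIM37, a ligase of peroxisomes and centrosomes, was at 1.01, TRIM45 at 0.867, and TRIM65, a ligase of the RNA sensor MDA5, at 1.33 (0.913 to 1.94). With fewer reads, TRIM59, anchored in the endoplasmic reticulum, had a ratio of 1.53 (0.878 to 2.72), the membrane repair protein TRIM72 1.36, TRIM29 1.04 and TRIM23 0.727 on 4 and 5 reads. At these depths a difference of the size seen for TRIM25 was not detectable in TRIM72, TRIM29 or TRIM23.

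Some members are neighbours. In the order of protein-coding genes of assembly Sscrofa11.1, TRIM31, TRIM40, TRIM10, TRIM15 and TRIM26 follow one another with no other gene between them. Their levels ran from TRIM26 at 471 after SMAD4 siRNA and 379 in the control, through TRIM15 at 7.36 and 0, to TRIM31 and TRIM40 at 0 in both libraries. TRIM65 and TRIM47 are direct neighbours as well, at 26.2 and 91.6 in the SMAD4 siRNA library and at 19.8 and 85.7 in the control.

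The TRIM members were last set beside other genes of the interferon pathway, from lists of RNA sensing, interferon signalling and antiviral effectors. All 23 effectors that met the minimum had a log2 ratio above 0, 22 had an interval wholly above 1, and their median was 1.44. Across all genes 45.5% had a log2 ratio above 0, 12.7% an interval wholly above 1 and 21.5% one wholly below 1. The 9 sensing genes had a median of 0.36, with 6 intervals above 1 and 1 below. Of these, DDX58, which encodes RIG-I, the target of TRIM25, had 108 after SMAD4 siRNA and 36.5 in the control, a ratio of 2.97 (2.35 to 3.79). MAVS, the adaptor that TRIM14 binds, was at 0.895 (0.835 to 0.960). The 7 signalling genes had a median of -0.17, with 1 interval above 1 and 4 below. Both libraries listed ISG15 at 0. The median of the interferon-listed TRIM members, 0.33, was near that of the sensing genes and under that of the effectors, differences that were not tested. That median was 0.31 without TRIM69 and 0.23 with both TRIM25 entries summed. Leukocyte markers, 6 of 7 entries above 0, summed to 580 after SMAD4 siRNA and 605 in the control, nearly all of it CD14, with CD3E at 0. PTPRC, the pan-leukocyte marker, was at 0.606 and 0.334, and CD79A, of B cells, at 4.57 after SMAD4 siRNA and 17.1 in the control, a ratio of 0.267 (0.0770 to 0.754). Endothelial markers, 4 of 5 entries above 0, summed to 341 after SMAD4 siRNA and 445 in the control, with TEK at 0 and ERG at a ratio of 0.582 (0.442 to 0.763). Most of that sum was PECAM1, at 240 after SMAD4 siRNA and 275 in the control. KDR was at a ratio of 2.36 (0.790 to 8.46). Theca markers, 2 of 5 above 0, summed to 30072 after SMAD4 siRNA and 39213 in the control. CYP17A1, INSL3 and LHCGR were listed at 0 in both, and DCN and COL3A1, which many stromal cells make, were at ratios of 0.743 and 0.768. Oocyte markers, 2 of 6 above 0, were mostly GDF9, at 56.6 (74 reads) after SMAD4 siRNA and 73.2 (87 reads) in the control. The part of these cells in the TRIM values was not tested.

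**Figure D4:**
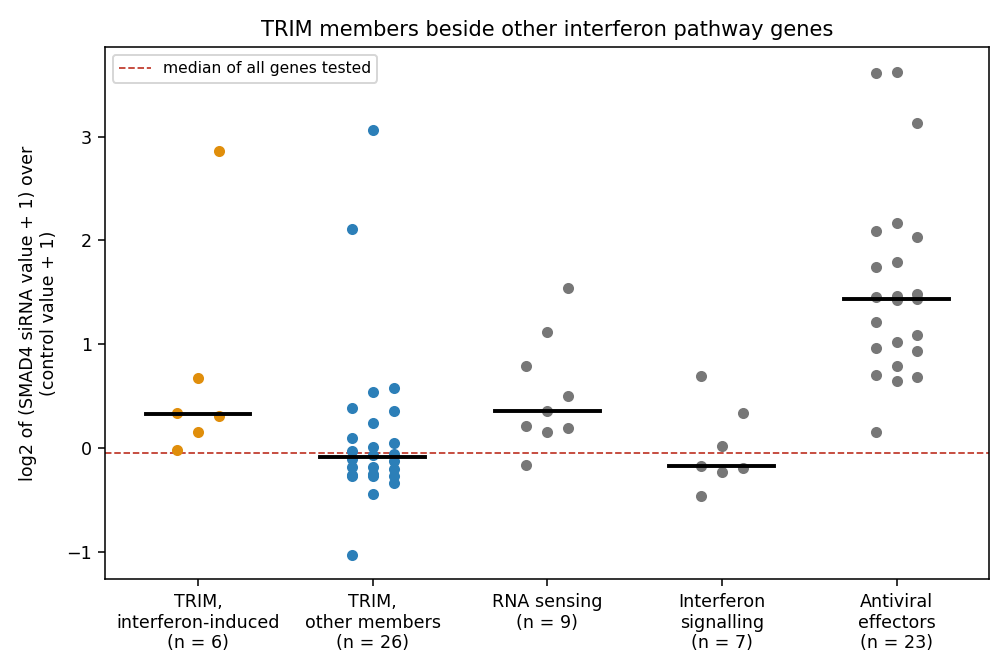
Log2 ratio of each gene that met the minimum mean value of 1, in 5 lists, with black bars at the medians and a dashed line at the median of all genes (-0.05). The interferon-induced TRIM members have a median of 0.33, the other members of -0.08, and the antiviral effectors of 1.44. Without TRIM69, which met the minimum only through the SMAD4 siRNA library, the first of these is 0.31.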

How the data were processed

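Total RNA of 2 pooled samples was sequenced, 1 library per group, each from 3 individuals per the labels. The authors deposited RPKM with upper-quartile scaling, per the names of those tables. Neither aligner and read counter nor annotation and genome build were stated there or in the labels (not given in the sources used here). Relative depth came from the commonest ratio between the libraries, 0.908163 in 665 of 16239 genes above 0 in both. With divisors of 980 for SMAD4 siRNA and 890 for control, all 18428 genes above 0 gave whole reads at some whole length up to 40000 bases (tolerances 2e-09 relative and 1e-06 absolute). That ratio fixes only the proportion of the divisors. Of the multiples tried, this pair was chosen because it placed the most tRNA entries, 28 of 42, at between 60 and 90 bases, most often 73. The count of tRNA entries is therefore no check on the divisors. The smallest such reads were used, so reads are lower bounds and intervals may be too wide.

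Log2 ratios used a pseudocount of 1, a minimum of 1 on the mean value, and 2-fold as the call. This scale understates changes of low genes, so plain ratios are printed for single members. A count test was not used, since there is 1 library per group. Intervals came from scipy 1.17.1 in Python 3.11.15. The steps were tested on simulated data for genes with at least 100 reads, with counting error only and the divisors taken as known. Members with fewer reads lay outside that setting, TRIM69, TRIM15 and TRIM36 among them. Every member could be named, with full values for interferon-listed and chromatin members and for members past 2-fold. DDX58, MAVS, TBK1 and ISG15 were named after their values were seen. Members, lists and classes were chosen with earlier results of these data known. Names of entries without a symbol came from the Sscrofa11.1 table, used for names and gene order alone. Interferon pathway lists matched 44 entries of 47 genes. Alternatives are described in the closing section.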

Additional observations from a re-analysis of the deposited data

Results flagged for a closer look

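A second deposited entry, listed under an ID without a symbol and named TRIM25 in the Sscrofa11.1 reference table, falls outside the rule that chose the members and yet held more reads than the entry called TRIM25. It had 1119 reads in the SMAD4 siRNA library and 1076 in the control, and its ratio was 0.944 (0.868 to 1.03), against 1.27 (1.04 to 1.54) for the entry called TRIM25. The value of the second entry was 2.60 times that of the first after SMAD4 siRNA and 3.49 times in the control. How reads were assigned to the 2 entries was not tested.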

How the results depend on the processing

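No paired analysis was possible because each group was 1 library. The summing or replacing of TRIM25 entries, the treatment of members listed at 0, rescaled intervals and messenger RNA entries alone were chosen after seeing the data. The difference of medians between interferon-listed and other members was 0.41. Under the 14 alternatives it lay between 0.30 (narrow list) and 0.59 (means in place of medians). None of the 14 both left out TRIM69 and summed the TRIM25 entries, so this range does not cover that case. Means gave 0.72 for the interferon-listed and 0.13 for the other members. TRIM69 in the first mean, and TRIM15 and TRIM36 in the second, met the minimum only through the SMAD4 siRNA library. Both means are raised by that selection, so the 0.59 lends the contrast no support. A minimum of 100 reads gave -0.18 for the other members. Without members listed at 0 in 1 library the interferon-listed median was 0.31. Setting those to 3 reads left it at 0.33 by construction, since TRIM69 still lay above the middle of the list, so that setting tests nothing. Members higher by 2-fold numbered 3, and 2 with a pseudocount of 5. They numbered 0 with each library rescaled to a sum of 1000000, with a mean value of at least 5, or with at least 100 reads. Each of these last settings leaves out the 3 members, so it does not test them. Members lower numbered 1, but 0 with rescaling or centring, and 7 by counting intervals. All genes higher and lower numbered 1191 and 1110, against 466 and 437 with a pseudocount of 5, 208 and 112 with rescaling, 572 and 546 with a mean value of at least 5, 128 and 108 with at least 100 reads, 2245 and 2277 at 1.5-fold, 2113 and 3569 by counting intervals, and 730 and 705 among messenger RNA entries. Stricter minimums and thresholds lower these counts by construction, and rescaling lowers all values, so the pseudocount weighs more. Of 130 alternative values of single members, 122 stayed within the member's counting interval and no 2-fold call changed sign. TRIM69 had 1.17 with a pseudocount of 5 and 0.57 with rescaling, both still above 0.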

Other observations

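Relatives of the family that carry other names were also read. PML, the founding TRIM protein of nuclear bodies and itself interferon-induced, had 497 after SMAD4 siRNA and 395 in the control, a ratio of 1.26 (1.19 to 1.33). RNF135, also called Riplet, a RING and SPRY ligase that acts on RIG-I as TRIM25 does, had 237 and 184, a ratio of 1.29 (1.08 to 1.54). MID2, a microtubule-binding member, was at 0.956 (0.780 to 1.17), and its relative MID1 had 33 and 21 reads, a ratio of 1.43 (0.801 to 2.60). MEFV, the pyrin gene, had 1 read after SMAD4 siRNA and was listed at 0 in the control, BSPRY was listed at 0 after SMAD4 siRNA and had 1 read in the control, and TRIML2 was listed at 0 in both.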
